A study of Mus musculus with 6 samples.

Results

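The interferon-stimulated genes examined here were a set of 40 mouse genes chosen by name, among them the Ifit, Oas, Ifitm and Gbp genes with their regulators Irf7, Irf9 and Stat2. Their levels were read from hippocampal RNA-seq of 3 5xFAD mice and 3 WT mice, all 6 months old, with 1 library per mouse. On a C57BL/6J background, 5xFAD mice carry transgenes for mutant human APP (its Swedish, Florida and London alleles) and for mutant human presenilin 1, and in both transgenes the Thy1 promoter directs expression to neurons. WT mice carry neither transgene. Of the 40 genes, 39 had a row among the 18263 genes of the count table, and Mx2 was not analysed here. After a filter on low counts, 35 of the 39 were tested among 12952 genes, whereas Rsad2, Isg15, Mx1 and Ifi44 did not pass. Levels are given as CPM, the counts of a gene per 1000000 counts of the TMM-scaled library, TMM being the edgeR scaling that sets the bulk of genes equal between libraries. Differences are log2 values of 5xFAD over WT with their standard error (SE), and a gene was called where its edgeR quasi-likelihood p, adjusted by Benjamini-Hochberg over all genes tested, was below 0.05. The libraries were made to quantify hippocampal transcripts in a mouse model of Alzheimer's disease, and the set was compared both between genotypes and among the 5xFAD libraries.

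Type I interferons signal through the receptor pair IFNAR1 and IFNAR2 and the kinases JAK1 and TYK2, which phosphorylate STAT proteins. STAT2 and IRF9 are parts of the complex that binds the interferon-stimulated response element in the promoters of its targets. Type II interferon acts through IFNGR1 and IFNGR2, and its targets carry the gamma-activated site. The targets detect foreign nucleic acid, block steps of viral replication, tag or degrade proteins, attack intracellular pathogens, and feed back on the pathway itself. In the brain, microglia and astrocytes are known to express many of these genes when interferon is present.

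The libraries held 8450009 to 12577839 counts. Thy1, whose promoter drives the transgenes, was at 2697, 2417 and 2654 CPM in 5xFAD libraries and at 623, 637 and 362 CPM in WT libraries (edgeR adjusted p = 0.00874), so that the labels and this gene went together. WT replicate 3 stood apart. Its log2 deviations correlated with transcript GC content over 12877 genes (Spearman rho = -0.617, against at most 0.064 in size in the other 5 libraries), and 6 hippocampal neuron markers, which summed to 13088 to 14262 CPM in 5xFAD libraries and to 14139 and 15681 CPM in WT replicates 1 and 2, summed to 7072 CPM there. The members were at a median GC content of 47.5%, against 50.5% for all genes tested. Their median log2 level in WT replicate 3 lay 0.41 above the mean of the other WT libraries, and -0.06 from it after correction for GC content.

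Promoters were examined first, since the response element is the feature by which these genes are known. RefSeq promoter windows of 300 bases (250 before to 50 after the transcript start, GRCm38.p6) matched 30 of the 40 members, with 35 windows in all. Both strands were searched for the core of the response element, GAAANNGAA, which reads TTCNNTTTC on the other strand. It was present for 20 of the 30 members (66.7%), against 8.56% of the 9619 tested genes with a window and 8.56% of all 32851 windows. The longer form, the core followed directly by A and C, was found for 14 members (46.7%), against 0.873% of tested genes and 0.819% of all windows. The gamma-activated site, TTCNNNGAA, was found for 7 members (23.3%), against 8.15% of tested genes and 8.3% of all windows, and in Ifitm3 and Bst2 it overlapped a core match. The windows below belong to the members among the 10 of smallest p between genotypes that held a core match. Each is written from 5′ to 3′ on the strand of the gene, capitals mark the core matches, and the coordinates are those of the window.
Ifitm3 (chr7:141010695-141010994, minus strand): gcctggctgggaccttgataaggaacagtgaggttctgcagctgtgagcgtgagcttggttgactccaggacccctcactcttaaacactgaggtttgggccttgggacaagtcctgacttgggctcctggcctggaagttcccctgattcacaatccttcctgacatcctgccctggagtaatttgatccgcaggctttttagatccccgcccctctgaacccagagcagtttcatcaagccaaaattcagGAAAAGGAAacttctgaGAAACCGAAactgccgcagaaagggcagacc
Irgm1 (chr11:48871371-48871670, minus strand): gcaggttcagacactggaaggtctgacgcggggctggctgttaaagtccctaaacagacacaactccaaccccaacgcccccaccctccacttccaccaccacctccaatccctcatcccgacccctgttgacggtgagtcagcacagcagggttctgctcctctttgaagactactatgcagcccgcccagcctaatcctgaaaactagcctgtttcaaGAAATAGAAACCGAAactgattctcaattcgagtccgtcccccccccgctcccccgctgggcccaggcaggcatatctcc
Eif2ak2 (chr17:78882523-78882822, minus strand): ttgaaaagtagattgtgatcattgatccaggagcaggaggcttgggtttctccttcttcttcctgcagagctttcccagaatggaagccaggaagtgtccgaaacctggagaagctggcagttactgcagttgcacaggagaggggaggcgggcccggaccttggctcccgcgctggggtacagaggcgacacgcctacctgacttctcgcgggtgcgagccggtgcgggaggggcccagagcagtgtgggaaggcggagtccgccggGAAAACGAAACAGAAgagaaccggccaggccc
Stat2 (chr10:128270248-128270547, plus strand): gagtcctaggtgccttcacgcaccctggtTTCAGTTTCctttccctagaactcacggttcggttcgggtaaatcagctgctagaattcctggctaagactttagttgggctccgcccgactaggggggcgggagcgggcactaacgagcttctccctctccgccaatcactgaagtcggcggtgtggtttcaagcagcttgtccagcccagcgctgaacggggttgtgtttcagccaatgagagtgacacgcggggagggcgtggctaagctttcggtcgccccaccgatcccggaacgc
Ifit3 (chr19:34583279-34583578, plus strand): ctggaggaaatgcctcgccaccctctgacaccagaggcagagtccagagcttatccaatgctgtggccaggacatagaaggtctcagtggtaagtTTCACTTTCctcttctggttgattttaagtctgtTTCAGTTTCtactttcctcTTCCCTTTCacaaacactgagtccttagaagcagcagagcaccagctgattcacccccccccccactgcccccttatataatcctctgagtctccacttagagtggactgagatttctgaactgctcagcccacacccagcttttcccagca
Positions were counted from 1 at the transcript start, with negative numbers before it. The matches of Ifitm3 began at 3 and 20 and those of Eif2ak2 at 19 and 25, just inside the transcript. In Irgm1 they began at -30 and -24 and overlapped. Stat2 held 1 match, at -221, and Ifit3 held 3, at -155, -121 and -102. Isg15 had 3 matches in close succession at -78, -72 and -66, and Ifit1 had 3 at -109, -103 and -84. For Lgals3bp, Oasl2 and Irf7 these letters were not in the window, and Ifi204 and Usp18 were among the members not matched. A match is a string of letters and was not tested for binding.

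Between genotypes the members were higher in 5xFAD as a group, mostly by modest amounts and mostly short of the threshold for single genes. The fitted difference was above 0 for 33 of 35 members (94.3%), against 47.7% of all genes tested, and the median log2 difference was 1.21, against -0.02 over all genes tested. At an unadjusted p below 0.05, 22 of 35 members were higher (62.9%, against 4.52% of all genes tested) and 0 were lower (against 1.78%). In 23 members (65.7%) every 5xFAD library lay above every WT library, against 8.42% of all genes tested. Over all genes, 3 members passed the adjusted threshold, namely Lgals3bp, Oasl2 and Ifitm3 (8.57%, against 0.656% of all genes tested). These were among 85 genes called higher, while over all libraries edgeR and limma-voom called 0 genes lower (231 at an unadjusted p below 0.05, 9 called by DESeq2, and 67 called by edgeR without WT replicate 3). DESeq2 called 8 members, these 3 with Ifi204, Irgm1, Eif2ak2, Stat2 and Irf7, against 209 of 12952 genes called higher. Without WT replicate 3 edgeR called 12 members (Ifitm3, Lgals3bp, Oasl2, Ifi204, Irgm1, Eif2ak2, Stat2, Ifit3, Ifi27, Xaf1, Gbp2 and Parp14), against 320 of 13376 genes called higher. The edgeR count was 1 without WT replicate 2 (59 over all genes) and 0 without any other 1 library (15 to 42 over all genes). In tissue RNA, more cells of a type and more RNA per cell cannot be told apart. The sum over the members was 302, 475 and 354 CPM in 5xFAD libraries and 138, 146 and 163 CPM in WT libraries, and without Lgals3bp it was 220, 330 and 255 CPM against 115, 124 and 154 CPM. The 3 sums of 5xFAD mice exceeded those of WT mice in both cases.

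**Figure D1:**
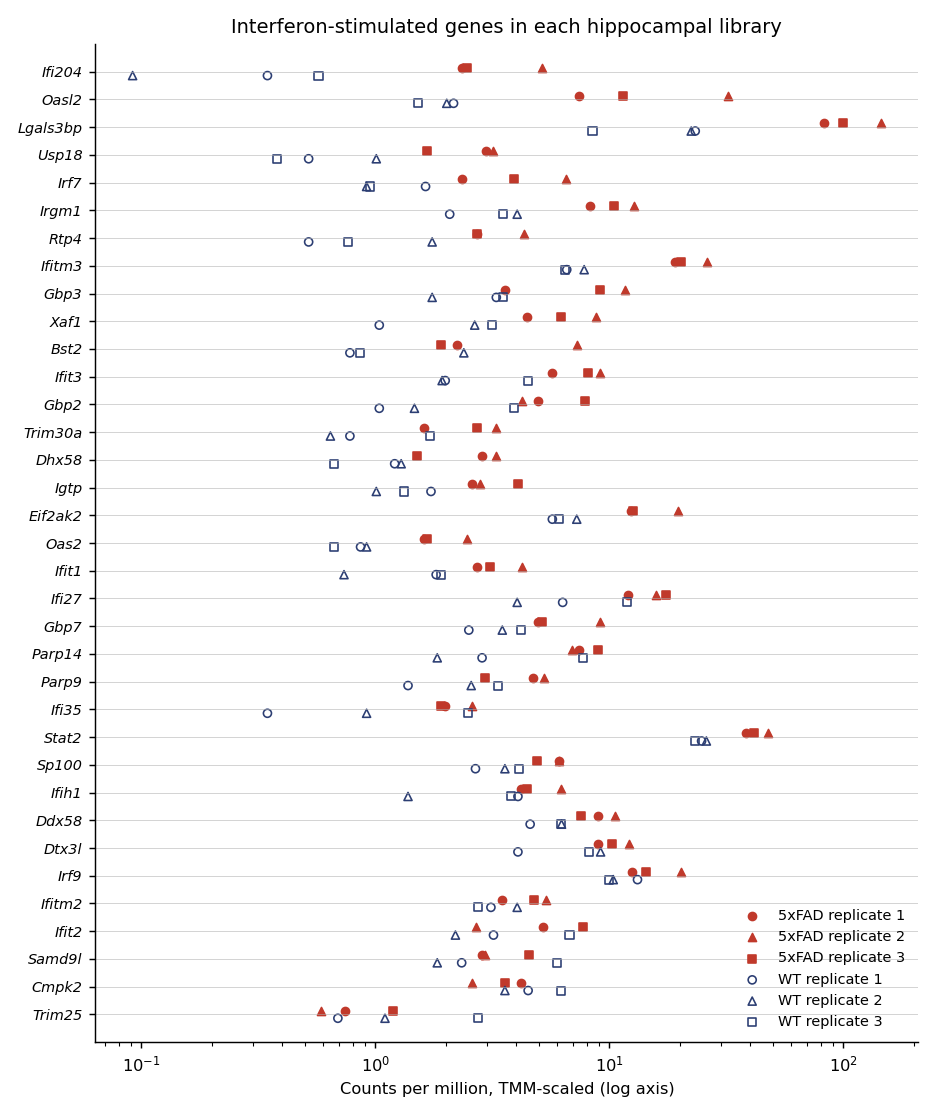
Level of each tested interferon-stimulated gene (rows, ordered by the log2 difference) in each library, in TMM-scaled CPM on a log axis. Filled red symbols are the 3 5xFAD libraries and open blue symbols the 3 WT libraries, and the marker shape gives the replicate number. In 23 of the 35 rows every red symbol lies to the right of every blue one.

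Among the regulators, Stat2, Irf7 and Usp18 were separated between genotypes while Irf9 was not. Every 5xFAD library lay above every WT library in 65.7% of the members and 8.42% of all genes tested. An unadjusted p below 0.05 was found for 3 of the 4, against 62.9% and 4.52%. None of the 4 was called by edgeR, and DESeq2 called Stat2 and Irf7. Stat2 (chr10:128270559-128292849), the STAT of the type I interferon complex, was at 38.4, 47.6 and 41.5 CPM in 5xFAD libraries and at 24.8, 26 and 23.3 CPM in WT libraries. Its difference was 0.78 ± 0.19 (SE, edgeR adjusted p = 0.19), a small shift with little spread within either genotype. Without WT replicate 3 it was called (0.75, edgeR adjusted p = 0.00867). Irf7 (chr7:141262706-141266481), the transcription factor that amplifies type I interferon production, was at 2.35, 6.56 and 3.9 CPM in 5xFAD libraries and at 1.64, 0.918 and 0.953 CPM in WT libraries. The difference of 1.85 ± 0.52 (SE) was not called (edgeR adjusted p = 0.327), and the 5xFAD libraries were widely spread. Usp18 (chr6:121245906-121270917), which removes ISG15 from proteins and dampens the type I receptor, was at 2.97, 3.17 and 1.67 CPM in 5xFAD libraries and at 0.519, 1.01 and 0.381 CPM in WT libraries. Its difference was 2.00 ± 0.56 (SE, edgeR adjusted p = 0.33), again without overlap. Irf9, the DNA-binding subunit of the complex, was at 12.5, 20.2 and 14.4 CPM in 5xFAD libraries and at 13.2, 10.4 and 10 CPM in WT libraries, so that the genotypes overlapped. The median difference over the 4 regulators was 1.32.

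All 5 nucleic acid sensors were above 0 (against 94.3% of the members), with a median difference of 1.22, against 1.21 over the members. In each of the 5 every 5xFAD library lay above every WT library, against 65.7% of the members and 8.42% of all genes tested. At an unadjusted p below 0.05 there were 4 (against 62.9% and 4.52%), while edgeR called 0 and DESeq2 called 2. Ifi204 (chr1:173747293-173766943), a DNA-binding member of the Pyhin family, had 94 counts in the 5xFAD libraries together and 11 in the WT libraries. Per library this was 2.35, 5.16 and 2.47 CPM in 5xFAD and 0.346, 0.0918 and 0.572 CPM in WT, the ratio of summed levels being 9.65 (exact 95% interval of the counts 5.16 to 20). The model gave 3.26 ± 0.67 (SE, edgeR adjusted p = 0.0984), the largest fitted difference among the tested members. It was called with correction for GC content (0.0264) and without WT replicate 3 (0.0111). Reads of Ifi204 can be shared with related Pyhin genes, which leaves its level uncertain. Eif2ak2 (chr17:78852564-78882573) encodes PKR, the kinase that halts translation upon binding double-stranded RNA. It was at 12.4, 19.6 and 12.6 CPM in 5xFAD libraries and at 5.71, 7.26 and 6.1 CPM in WT libraries, a difference of 1.22 ± 0.29 (SE, edgeR adjusted p = 0.176) that was called without WT replicate 3 (0.0181). The cytosolic RNA helicase genes Dhx58, Ifih1 and Ddx58 had differences of 1.25, 0.68 and 0.66. For Ifih1, which encodes MDA5, the lowest 5xFAD library was at 4.21 CPM and the highest WT library at 4.07 CPM.

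The antiviral effectors of the Ifit, Oas and Mx type and their neighbours in function numbered 11, of which 7 were tested and 1, Oasl2, was called. The called share was 8.57% of the members and 0.656% of all genes tested. Oasl2 (chr5:114896936-114912234), a member of the oligoadenylate synthetase family, was at 7.43, 32.2 and 11.4 CPM in 5xFAD libraries and at 2.16, 2.02 and 1.52 CPM in WT libraries. The WT libraries lay close together and every 5xFAD library was well above them, with replicate 2 far ahead. The difference was 3.15 ± 0.56 (SE, edgeR adjusted p = 0.0494). Without 5xFAD replicate 2 it was 2.30 and no longer called (edgeR adjusted p = 0.111), and of the settings that left out 1 library only the one without WT replicate 3 kept the call (0.0016). Upper-quartile scaling (0.0528), a stricter filter (0.0616) and limma-voom (0.194) did not call it either. Ifit3 (chr19:34583531-34588731), an antiviral gene of the tetratricopeptide-repeat family, was at 5.7, 9.14 and 8.12 CPM in 5xFAD libraries and at 1.99, 1.93 and 4.48 CPM in WT libraries. Its difference was 1.45 ± 0.42 (SE, edgeR adjusted p = 0.357), and it was called without WT replicate 3, its highest WT library (0.00483). The near-identical copy Ifit3b shares reads with Ifit3, so that the level of either is uncertain.

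The other effectors differed from one another. Xaf1, Oas2 and Ifit1 had differences of 1.51, 1.21 and 1.16, each with an unadjusted p below 0.05, and Xaf1 was called without WT replicate 3 (edgeR adjusted p = 0.0396). Ifit2, which neighbours Ifit3 and Ifit1 on chromosome 19 and whose product also binds RNA, was at 5.2, 2.7 and 7.72 CPM in 5xFAD libraries and at 3.2, 2.2 and 6.76 CPM in WT libraries. The genotypes overlapped throughout, and the difference of 0.37 ± 0.52 (SE, edgeR adjusted p = 0.877) turned to -0.05 without 5xFAD replicate 3. Cmpk2, a mitochondrial nucleotide kinase gene that lies beside Rsad2, was at 4.21, 2.58 and 3.58 CPM in 5xFAD libraries and at 4.5, 3.58 and 6.19 CPM in WT libraries, a difference of -0.46 (edgeR adjusted p = 0.819). It was 1 of the 2 tested members below 0, the other being Trim25.

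The 4 members that failed the filter had too few counts for the model, and are given as counts. Isg15, which encodes the ubiquitin-like modifier ISG15, had 3, 22 and 1 counts in 5xFAD libraries and 0, 1 and 2 counts in WT libraries. The ratio of summed levels was 9.79 (exact 95% interval 3 to 50.5), and 22 of the 26 counts in 5xFAD came from replicate 2. Without that library the ratio was 2.13 (0.36 to 14.5), an interval that includes 1. Mx1, an antiviral GTPase gene, had 4, 1 and 2 counts in 5xFAD libraries and 0, 0 and 1 in WT libraries, a ratio of 7.91 (1.02 to 356) that rests on 1 count in WT. Rsad2, which encodes viperin, had 11, 16 and 9 counts in 5xFAD libraries and 4, 9 and 8 in WT libraries, a ratio of 1.94 (1.1 to 3.49). For Ifi44 the counts were 8, 11 and 9 in 5xFAD and 1, 9 and 8 in WT, a ratio of 1.76 with an interval that includes 1 (0.938 to 3.37). These intervals cover counting error only and leave out the spread between mice.

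Of the 4 membrane proteins, Ifitm3 was called and was also among the most abundant members. Ifitm3 (chr7:141009586-141010770), which restricts the entry of viruses at endosomal membranes, was at 19, 26.1 and 20.2 CPM in 5xFAD libraries and at 6.58, 7.81 and 6.48 CPM in WT libraries. Both genotypes were tight and did not overlap. The difference was 1.64 ± 0.24 (SE, edgeR adjusted p = 0.0201), a 3.13-fold rise. The call ended when any 1 library other than WT replicate 3 was left out (edgeR adjusted p 0.0555 to 0.149), while the difference stayed between 1.49 and 1.73. Its neighbour Ifitm2 was at 3.47, 5.39 and 4.78 CPM in 5xFAD libraries and at 3.12, 4.04 and 2.76 CPM in WT libraries, with overlap and a difference of 0.46 (edgeR adjusted p = 0.818). In the annotation 40.9% of the exon bases of Ifitm2 also belong to another gene on the same strand, Gm45717, so its count is uncertain. Ifi27 was at 12, 15.9 and 17.4 CPM in 5xFAD libraries and at 6.32, 4.04 and 11.9 CPM in WT libraries. Its difference of 1.03 was not called (edgeR adjusted p = 0.669), and WT replicate 3 reached almost to the lowest 5xFAD library. Without WT replicate 3 it was 1.55 and was called (0.00226). Bst2, which encodes tetherin, the protein that holds budding virions at the cell surface, was at 2.23, 7.27 and 1.91 CPM in 5xFAD libraries and at 0.779, 2.39 and 0.857 CPM in WT libraries. Its difference was 1.49 ± 0.68 (SE, edgeR adjusted p = 0.799) and was 0.62 without 5xFAD replicate 2.

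Genes for ubiquitin and ADP-ribose enzymes overlapped between genotypes in every case. Their median difference was 0.82, against 1.21 over the members. An unadjusted p below 0.05 was found for 1 of 5, against 62.9% of the members and 4.52% of all genes tested. In none of the 5 did every 5xFAD library exceed every WT library, against 65.7% and 8.42%, and edgeR and DESeq2 called 0. With 5 genes, the role's difference from the other members was not tested. The WT values spread widely. WT replicate 3 was the highest WT library for Parp14 (7.72 CPM, against 2.86 and 1.84 CPM), Parp9, Trim30a and Trim25. It was also the highest WT library for 48.6% of the members and 45.9% of all genes tested. Without that library Parp14 had a difference of 1.72, against 0.91 with it, and was called (edgeR adjusted p = 0.0103), and Parp14, Parp9 and Trim30a had every 5xFAD library above both remaining WT libraries. Trim25, the ubiquitin ligase gene that acts on RIG-I, was at 0.743, 0.586 and 1.19 CPM in 5xFAD libraries and at 0.692, 1.1 and 2.76 CPM in WT libraries, a difference of -0.81 (edgeR adjusted p = 0.818) that was -0.05 without WT replicate 3. Dtx3l and Parp9, whose products form a complex and whose exons overlap on opposite strands by 458 bases, had differences of 0.55 and 0.82. Whether the counting used strand is not stated, and reads of this pair may have been split or lost.

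The interferon-inducible GTPases, which gather at the membranes around intracellular pathogens, numbered 5, all tested. All 5 had an unadjusted p below 0.05, against 62.9% of the members and 4.52% of all genes tested. In all 5 every 5xFAD library lay above every WT library, against 65.7% and 8.42%. The median difference was 1.42, against 1.21 over the members, although edgeR called 0 (DESeq2 called 1, Irgm1). With 5 genes, the role's difference from the other members was not tested. Irgm1 (chr11:48861968-48871683) was at 8.3, 12.8 and 10.5 CPM in 5xFAD libraries and at 2.08, 4.04 and 3.52 CPM in WT libraries. The difference was 1.71 ± 0.35 (SE, edgeR adjusted p = 0.0984). It was called with correction for GC content (0.0324) and without WT replicate 3 (0.00515). Gbp3, of the guanylate-binding protein cluster on chromosome 3, was at 3.59, 11.7 and 9.15 CPM in 5xFAD libraries and at 3.29, 1.75 and 3.52 CPM in WT libraries. The genotypes were thus only just apart, with 5xFAD replicate 1 at the WT level and the other two well above it (1.52 ± 0.48, SE, edgeR adjusted p = 0.469). Gbp2, Igtp and Gbp7 had differences of 1.42, 1.22 and 0.92, and Gbp2 was at 2.19 and called without WT replicate 3 (edgeR adjusted p = 0.0114). Related genes of the cluster can share reads, and 8.01% of the exon bases of Igtp are shared with Irgm2.

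The last role held Lgals3bp, Rtp4, Sp100, Ifi35, Samd9l and Ifi44, with a median of 0.79 over the 5 tested. Lgals3bp (chr11:118392751-118402092), a secreted glycoprotein gene, was at 82.5, 145 and 99.7 CPM in 5xFAD libraries and at 23.3, 22.4 and 8.48 CPM in WT libraries. Per length of transcript it was the most abundant member in 5xFAD, with 38.3 CPM per kilobase, followed by Ifitm3 with 32.1 and, at some distance, Ifi27 with 10.3, Stat2 with 7.17 and Ifitm2 with 6.94. In WT it was at 6.34 CPM per kilobase, below Ifitm3 with 10.3. The difference of Lgals3bp was 2.59 ± 0.39 (SE, edgeR adjusted p = 0.0202). It was called without WT replicate 2 (0.0435) or 3 (9.5e-07), and not without any 1 of the other 4 libraries (0.0574 to 0.115). WT replicate 3 was the lowest WT library of Lgals3bp, and without it the difference was smaller, at 2.26. Rtp4, a chaperone gene for receptors, had a difference of 1.68 without overlap of the genotypes. Samd9l was at 0.03, with its highest value, 6 CPM, in WT replicate 3, and at 0.73 without that library.

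**Figure D2:**
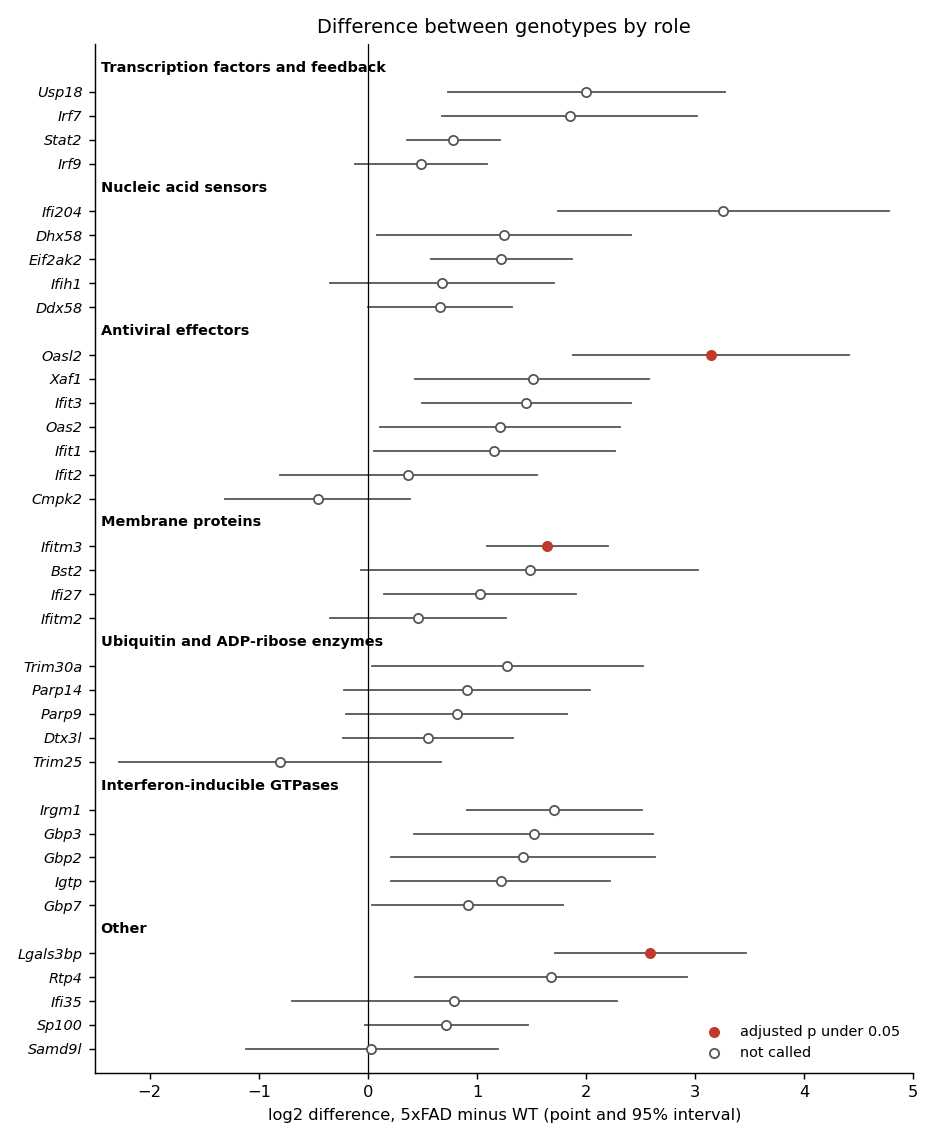
Fitted log2 difference (5xFAD minus WT) of each tested member with its 95% interval, grouped by role. Filled red points are the 3 members called by edgeR at an adjusted p below 0.05. Points lie above 0 for 33 of the 35 members, among them all 5 GTPases and all 5 sensors, and Trim25 and Cmpk2 are the members below 0.

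Which library carried the highest level was then compared among the 5xFAD mice. Replicate 2 was the highest 5xFAD library for 27 of 35 members (77.1%), against 31.3% of all genes tested, and replicate 1 was the lowest for 22 (62.9%), against 34.9%. Replicate 3 was highest for 7 members and replicate 1 for 1, Cmpk2. The full order 2, 3, 1 was seen in 19 members (54.3%), against 18% of all genes tested. Relative to the mean of WT libraries, the median log2 level of the members was 0.88 in 5xFAD replicate 1, 1.40 in replicate 2 and 1.04 in replicate 3, against 0.01 to 0.02 over all genes tested. The median was thus above WT in each of the 3 5xFAD mice. Replicate 2 exceeded replicate 1 by a median of 0.54, with 30 of 35 members above 0, and exceeded replicate 3 by 0.40, with 27 of 35 above 0. After correction for GC content these medians were 0.53 and 0.40. Each library was 1 mouse, so these differences have no replicate and no test over animals.

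Counting error was taken into account with an exact interval for the ratio of a gene's levels in a pair of libraries. The interval for replicate 2 over replicate 1 lay above 1 for 16 of 35 members (45.7%) and below 1 for 1 (2.86%), against 17.1% and 20.1% of all genes tested. For replicate 2 over replicate 3 it lay above 1 for 15 members and below 1 for 2, against 17.6% and 17.2% of all genes tested. Replicate 3 over replicate 1 gave 6 members above 1 and 0 below, against 18.9% and 20.2%. These intervals compare libraries, not conditions.

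The widest ratio of the highest to the lowest 5xFAD library, among tested members with at least 1 CPM in mean over these libraries, belonged to Oasl2, with 4.34 (exact 95% interval 3.27 to 5.83). Bst2 followed with 3.8 (2.34 to 6.37), Gbp3 with 3.26 (2.14 to 5.12), Ifit2 with 2.86 (1.8 to 4.73) and Irf7 with 2.79 (1.63 to 4.97). Isg15, which was not tested, had a wider ratio of 32.4, but on few counts (5.24 to 1337). In Oasl2, Bst2, Gbp3 and Irf7 the highest library was replicate 2. In Ifit2 it was replicate 3, with replicate 2 the lowest, so that neighbouring Ifit genes were ordered differently in the same mice. Among 12764 genes with at least 1 CPM in mean over the 5xFAD libraries, Oasl2 ranked 37 and Bst2 ranked 44 by the excess of replicate 2 over the mean of replicates 1 and 3. Irf7 ranked 213 and Ifi204 ranked 227, whereas Ifit2 ranked 12602. Stat2 and Ifitm3 were less uneven, with an excess of 0.25 and 0.41 on the log2 scale, against 1.79 for Oasl2.

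**Figure D3:**
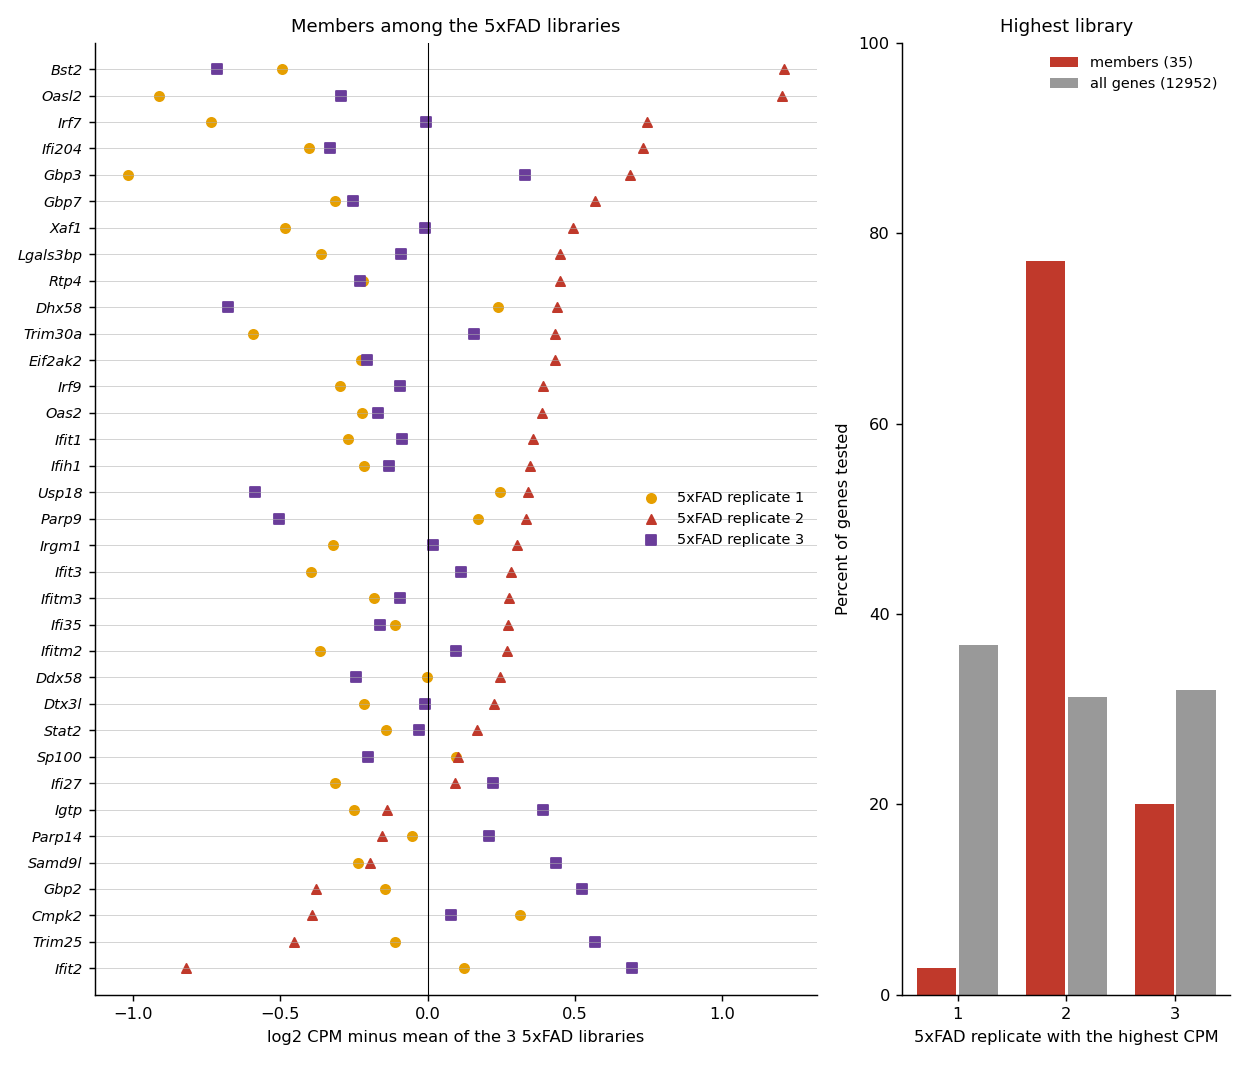
Left, log2 CPM of each tested member in the 3 5xFAD libraries relative to their mean (symbols by replicate, rows ordered by replicate 2). Right, percent of members (red) and of all genes tested (grey) whose highest 5xFAD library was replicate 1, 2 or 3. Replicate 2 is the highest for 77.1% of members and 31.3% of all genes.

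Markers of other cell types moved with part of this order. A list of 5 choroid plexus and ependymal markers summed to 740, 4165 and 1729 CPM in 5xFAD libraries and to 1215, 2205 and 399 CPM in WT libraries, so it shared the order 2, 3, 1 with the members in 5xFAD. This sum was nearly all Ttr, with 671, 4017 and 1631 CPM in 5xFAD and 1148, 2117 and 363 CPM in WT. In 5xFAD Kl and Folr1 had the same order, as did Ccdc153 with little spread (3.22, 3.87 and 3.34 CPM). Foxj1 did not, at 39.6, 49.4 and 36.5 CPM. In WT the orders differed, with the choroid list at 1215, 2205 and 399 CPM and the summed members at 138, 146 and 163 CPM. With unscaled library totals the members of WT replicates 1 and 2 were at 132 and 133 CPM. WT replicate 3, the library that stood apart by GC content, had the lowest choroid sum and the highest sum of members (163 CPM). The part of choroid plexus tissue in the differences among the 5xFAD libraries was not tested. The 10 microglia markers summed to 506, 440 and 455 CPM in 5xFAD and to 197, 217 and 141 CPM in WT. Of these sums Cx3cr1 alone made up 276, 215 and 208 CPM in 5xFAD and 100, 118 and 34.5 CPM in WT. Within 5xFAD the sum over the 10 markers was thus not highest in replicate 2, and its peak in replicate 1 went with Cx3cr1. Replicate 2 was the highest 5xFAD library for 0 of the 9 markers tested, while each of the 3 replicates was the lowest for 3 of the 9. Between genotypes 8 of the 9 were higher at an unadjusted p below 0.05, against 4.52% of all genes tested. In 8 every 5xFAD library lay above every WT library, against 8.42%. Their median difference was 1.15, edgeR called Itgam (edgeR adjusted p = 0.00755) and DESeq2 called 4. The mean sum in 5xFAD over that in WT was 2.52 for the microglia markers, 2.53 for the members and 2.05 for the members without Lgals3bp. The part of microglial number in the difference between genotypes was not tested.

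**Figure D4:**
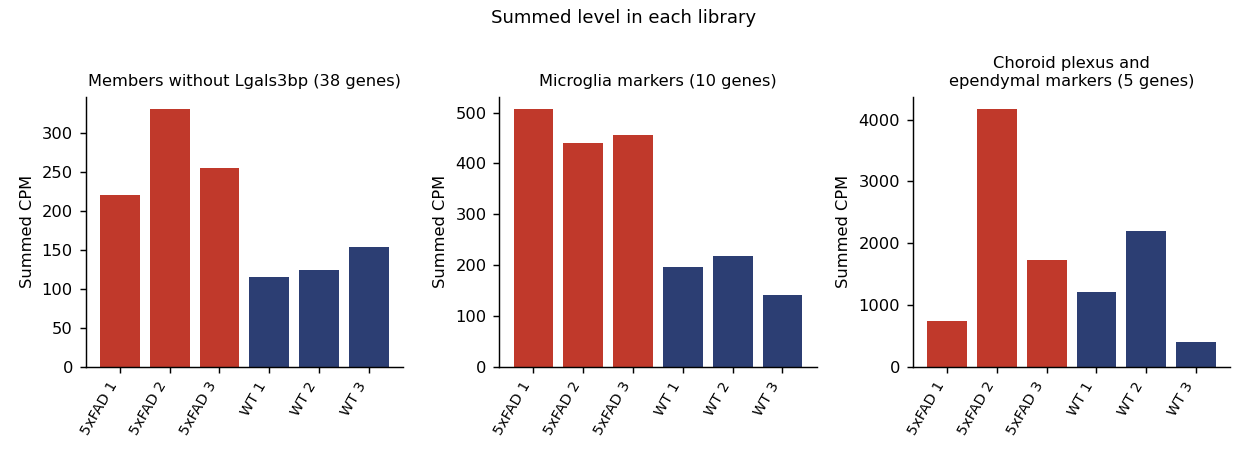
Summed level in each library (TMM-scaled CPM, 3 5xFAD libraries in red and 3 WT libraries in blue) of the members without Lgals3bp, of microglia markers and of choroid plexus and ependymal markers. In 5xFAD the members and the choroid markers are highest in replicate 2. The microglia sum is highest in replicate 1 (506 CPM, against 440 and 455 CPM in replicates 2 and 3). Of it the marker Cx3cr1 alone is 276, 215 and 208 CPM in 5xFAD replicates 1, 2 and 3.

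Markers of blood and blood-borne cells were also read. The 12 T, NK and B cell markers had at most 21 counts each over all libraries, none was tested, and Ncr1 and Ms4a1 had 0 counts. They summed to 1.86, 0.938 and 1.75 CPM in 5xFAD and to 0.519, 0.643 and 0.762 CPM in WT. Haemoglobin and other erythroid genes summed to 49.3, 4.57 and 4.06 CPM in 5xFAD and to 14.6, 18.5 and 13.3 CPM in WT, so they were highest in 5xFAD replicate 1, where most members were lowest. The tested markers of endothelial cells (6), mural cells and fibroblasts (6), border macrophages (4), dendritic cells (2) and monocytes or neutrophils (1) included 0 genes at an unadjusted p below 0.05 in either direction. Of 6 astrocyte markers Gfap was called, at 1497, 1471 and 1735 CPM in 5xFAD libraries and at 319, 287 and 330 CPM in WT libraries (2.33 ± 0.21, SE, edgeR adjusted p = 0.00203), and it was lowest in 5xFAD replicate 2. The part of reactive astrocytes in the members' difference was not tested.

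The genes upstream of the members were read from lists of the pathway. Of 21 interferon ligand genes 3 had a row, and none had enough counts to be tested. Ifng, which encodes type II interferon, had 0, 4 and 1 counts in 5xFAD libraries and 0 in each WT library, Ifnz had 1 count in 5xFAD and Ifnab had 1 count in WT. A count of 0 allows up to 3 counts in a library, so that no difference was detectable at this depth. Of the receptors, 5 were tested and 0 were called by edgeR or DESeq2. At an unadjusted p below 0.05, 2 of the 5 were higher, against 4.52% of all genes tested. Ifnar1 was at 2.97, 4.45 and 3.74 CPM in 5xFAD libraries and at 3.55, 4.87 and 7.05 CPM in WT libraries (-0.47, edgeR adjusted p = 0.818), and Ifnar2 had a difference of 0.49 (0.81). Ifngr1 and Ifngr2 had differences of 0.71 (0.729) and 0.12 (0.892).

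Among kinases, STATs and IRFs outside the set, 2 of 8 tested genes were called, against 0.656% of all genes tested. At an unadjusted p below 0.05, 4 of the 8 were higher, against 4.52%. Irf8, a transcription factor gene of microglia and other myeloid cells, was at 22.1, 19.8 and 24.4 CPM in 5xFAD libraries and at 1.38, 3.86 and 4 CPM in WT libraries (2.84 ± 0.39, SE, edgeR adjusted p = 0.0134). Irf5, which acts downstream of Toll-like receptors, was at 28, 17.9 and 27.4 CPM in 5xFAD libraries and at 6.92, 6.15 and 3.91 CPM in WT libraries (2.11 ± 0.31, SE, 0.0187). In both, replicate 2 was the lowest 5xFAD library, unlike in most members. Jak1 (-0.28), Tyk2 (0.34) and Irf3 (-0.62) were not called (edgeR adjusted p 0.811 to 0.825). Of 12 tested genes of the sensing relay 0 were called by edgeR or DESeq2. An unadjusted p below 0.05 was found for 2, Zbp1 and Tlr7, against 4.52% of all genes tested. Among 8 tested inhibitors of the pathway 1 was called, Ptpn6, a phosphatase gene of blood and myeloid cells, against 0.656% of all genes tested. Ptpn6 was at 14.7, 16.5 and 23 CPM in 5xFAD libraries and at 4.07, 5.14 and 1.91 CPM in WT libraries (2.28 ± 0.38, SE, edgeR adjusted p = 0.0353). The calls of Irf8, Irf5 and Ptpn6 ended without any 1 of the 5xFAD libraries (edgeR adjusted p 0.0598 to 0.246), that of Irf5 also without WT replicate 1 or 2 (0.0525 and 0.0555), and that of Ptpn6 also without WT replicate 1 (0.133).

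A list of 84 further interferon-stimulated genes, none of them members, had 42 tested genes. Of these 25 were higher at an unadjusted p below 0.05, against 4.52% of all genes tested. In 28 every 5xFAD library lay above every WT library, against 8.42% of all genes tested. The median difference was 1.00, against -0.02. The edgeR test called 1 and DESeq2 called 10, against 85 and 209 of the 12952 genes tested. The edgeR call was B2m, which encodes the light chain of MHC class I, at 80.2, 128 and 103 CPM in 5xFAD libraries and at 28, 32.1 and 23.4 CPM in WT libraries (means 104 ± 23.9 and 27.8 ± 4.31 CPM, SD, n = 3 each, edgeR adjusted p = 0.00874). Its call ended without 5xFAD replicate 2 (0.0598) or 3 (0.0802). Replicate 2 was the highest 5xFAD library for 22 of the 42 (52.4%), between the 31.3% of all genes tested and the 77.1% of the members. Differences between these shares were not tested. Cxcl10, a chemokine gene picked out after its values were seen, had 16, 15 and 8 counts in 5xFAD libraries and 0 in every WT library, too few for the filter, and was lowest in 5xFAD replicate 3.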

How the data were processed

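The authors depleted total RNA of rRNA, sequenced 150 bp paired ends and, per the submitters' processing notes and the study's methods, used cutadapt 1.9.3, HISAT2 2.0.4 (mm10), HTSeq 0.9.1 and edgeR 3.16.5. No source read here names the annotation release or the strand setting. The deposited raw counts per gene were used, and the authors' normalised columns were not. The labels gave the genotype of each library, and no covariate was fitted. Genes passing filterByExpr (minimum count 10) were fitted with the edgeR 4.0.16 quasi-likelihood test in R 4.3.3 with TMM scaling, and p-values were adjusted by Benjamini-Hochberg over all 12952 genes. The SE and 95% intervals are approximate. Ratios between pairs of libraries carry exact conditional binomial intervals. An exact test of 3 against 3 libraries cannot go below p = 0.1. Positions, exon lengths and GC content came from GENCODE M21 on GRCm38, and promoter windows from RefSeq.

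Members and gene lists were chosen with earlier results of these data known. Full values were given for called members, the 10 of smallest p, the 5 most abundant per kilobase, the 5 most uneven among 5xFAD libraries, those that failed the filter, called pathway genes and a fixed set of receptors, kinases and factors, and further members were picked after their values were seen. Alternatives comprised other scalings, filters, limma-voom 3.58.1, DESeq2 1.42.0, GC correction, a replicate block and leaving out each library.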

Additional observations from a re-analysis of the deposited data

How the results depend on the processing

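The members kept a median log2 difference between 0.91 and 1.25 under every alternative run, and 0 members were called lower. With a stricter filter (minimum count 30, 22 members tested) the median was 0.91, by construction over the more abundant members. The count of called members depended on the test and on single libraries: it was 5 with GC correction, 8 with DESeq2 and 0 to 12 when 1 library was left out, with 0 for any 5xFAD library or WT replicate 1, 1 without WT replicate 2 and 12 without WT replicate 3. Over all genes, 209 were called higher with DESeq2, and 15 (without 5xFAD replicate 3) to 320 (without WT replicate 3) when 1 library was left out. The causes were not tested. With 1 library left out the median of the members ranged from 0.97 (without 5xFAD replicate 2) to 1.22.

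Replicate numbers were shared between genotypes, but the deviations of same-numbered libraries correlated only weakly (Pearson r 0.0937, 0.0694 and 0.177), although each library correlated best with its own number. The replicate block gave 120 genes and 4 members called, Irgm1 being added, and the block with GC correction 138 genes and 6 members. Of 221 values of single members under the alternatives, 17 gained a call, 17 lost one and 1 reversed: Ifit2 was at -0.05 without 5xFAD replicate 3, its lowest value with 1 library left out, the highest being 0.96. Replicate 2 was the highest 5xFAD library for 27 of 35 members with unscaled totals, other scalings and GC correction, and for 30 of 39 without a filter, settings added after the data were seen. With unscaled library totals the summed members of WT replicates 2 and 3 were 133 and 196 CPM, against 146 and 163 CPM with TMM scaling, and the 5xFAD sums stayed above both. Members with few counts have wide intervals, which limits what single genes show.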
